A study of Homo sapiens with 10 samples.

Results

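H3K27ac, a histone acetylation mark of active promoters and enhancers, was followed at 10 genes of the small MAF, cap'n'collar (CNC) and NRF2 pathway. The members were taken by name out of 19626 protein-coding genes on chromosomes 1 to 22 and X (GENCODE release 44, hg38). They comprised the small MAF genes MAFF, MAFG and MAFK, the CNC factor genes NFE2L1 and NFE2L2, the repressor gene BACH1, the inhibitor gene KEAP1, and the target genes HMOX1, NQO1 and GCLM. MAFG was included because the study ties its protein to TWEAK, the ligand of the receptor Fn14. The study reports MAFG binding at an enhancer of the NAD synthesis gene NAMPT in triple-negative lines, and not in SKBR3 or the ER-positive line MCF7. MDA-MB-453 is not among the lines shown for that binding. Knockdown of MAFG in triple-negative lines abolished the rise of NAMPT with TWEAK. Fn14 protein is described there as low in HER2 lines. For each member, peaks that overlapped the gene body plus 50 kb on each side were collected. Peaks of the 8 lists that overlapped were merged into 76044 regions, of which 119 lay in these windows.

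The study asked how TWEAK changes active chromatin in breast cancer, with its focus on triple-negative cell lines and tumours. The data here are from SKBR3 and MDA-MB-453, 2 established human breast cancer cell lines of the HER2 subtype, which served there for comparison. Each line had 2 Untreated and 2 TWEAK libraries, and the authors called peaks in each library separately. Per the labels, whose growth text is the same for every sample, cells were held in optimem for 8 h before treatment. TWEAK cells then received 10 ng/ml of the ligand over 48 h, with a fresh dose after 24 h. No genetic change is named for either line. The study's methods speak of biological replicates for ChIP-seq in cell lines, but the labels do not tie each library to a culture of its own, so p-values measure only the spread between these libraries.

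NFE2L2 (NRF2) and NFE2L1 (NRF1) are basic leucine zipper activators that bind antioxidant response elements (AREs) in heterodimers with a small MAF protein. Small MAF proteins lack a transactivation domain of their own, and their homodimers, or their dimers with the heme-regulated repressor BACH1, occupy the same elements without activating them. KEAP1 is the substrate adaptor of a CUL3 ubiquitin ligase that targets NFE2L2 for degradation until electrophiles or oxidants modify it. HMOX1 (heme oxygenase), NQO1 (a quinone reductase) and GCLM (the modifier subunit of the ligase for glutathione synthesis) are classical ARE targets.

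The sequences below are shown because each holds an ARE or AP-1 letter match in a merged region that had peaks in all 8 lists. A merged region can be longer than the peak of a single list. Of the highest scoring promoter peaks, only that of SKBR3 TWEAK replicate 2 reached the HMOX1 promoter region match. Only that of SKBR3 Untreated replicate 1 reached MAFG match 1. Matches were searched on both strands for TGACNNNGC (the ARE core), TGACTCAGC (the form that also holds an AP-1 site, so that each of its matches counts for the other motifs too) and TGAGTCA (AP-1). Each sequence is read 5′ to 3′ along the strand of the gene, and capitals mark the match. The distal region of HMOX1, 9.1 kb upstream of the start, held 3 matches to TGACTCAGC within 150 bases. Regions of like length held at least 1 such match in 3.5% of cases.
HMOX1 distal region (hg38 chr22:35371992-35372141, plus strand): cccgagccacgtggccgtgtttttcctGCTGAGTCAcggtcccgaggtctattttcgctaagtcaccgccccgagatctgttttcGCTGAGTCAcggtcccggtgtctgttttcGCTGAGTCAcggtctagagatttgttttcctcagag
HMOX1 promoter region (hg38 chr22:35377106-35377214, plus strand): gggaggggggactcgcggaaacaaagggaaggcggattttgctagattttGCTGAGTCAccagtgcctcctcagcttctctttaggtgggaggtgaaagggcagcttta
NQO1 promoter region (hg38 chr16:69726957-69727065, minus strand): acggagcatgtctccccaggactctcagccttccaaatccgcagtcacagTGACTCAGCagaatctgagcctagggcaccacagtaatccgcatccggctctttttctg
The promoter region match of HMOX1 lay at −3936 bases and that of NQO1 at −452 bases from the canonical start, the start of the transcript that GENCODE marks as canonical, in regions of lengths at which 10.5% and 14.7% held a match. The promoter regions of MAFG and MAFK, which encode proteins that bind AREs, also held TGACTCAGC matches, at 764 and 4114 bases into MAFG and 278 bases into MAFK. These promoter regions are long, and 21.2% of regions as long as that of MAFG and 37.5% of those as long as that of MAFK held at least 1 match.
MAFG promoter region match 1 (hg38 chr17:81923567-81923675, minus strand): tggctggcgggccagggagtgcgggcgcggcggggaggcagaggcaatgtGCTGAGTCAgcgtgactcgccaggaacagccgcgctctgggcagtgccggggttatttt
MAFG promoter region match 2 (hg38 chr17:81926917-81927025, minus strand): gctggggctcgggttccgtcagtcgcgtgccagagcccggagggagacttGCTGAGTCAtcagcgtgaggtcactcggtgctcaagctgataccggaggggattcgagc
MAFK promoter region (hg38 chr7:1530926-1531034, plus strand): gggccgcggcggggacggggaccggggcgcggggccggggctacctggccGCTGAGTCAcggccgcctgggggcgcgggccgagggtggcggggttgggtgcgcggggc
The region at the canonical BACH1 start also held 1 TGACTCAGC match (not shown), at a length where 4.1% of regions held at least 1. The region that reaches an alternative MAFF start held 2 (not shown), at a length where 46.4% of regions held at least 1. GCLM held an ARE core match next to its start, and BACH1 held an AP-1 match 49 bases upstream of its canonical start.
GCLM promoter (hg38 chr1:93909446-93909474, minus strand): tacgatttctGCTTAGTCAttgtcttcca
BACH1 promoter (hg38 chr21:29298824-29298921, plus strand): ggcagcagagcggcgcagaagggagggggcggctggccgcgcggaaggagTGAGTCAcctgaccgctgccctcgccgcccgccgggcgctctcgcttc

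Over all 119 regions, 10 (8.4%) held TGACTCAGC, against 4.58% of all regions, or 3.24 against 2.25 matches per 100 kb. The share of regions with any match rises with their length, and the 119 regions spanned 432.5 kb against 170877.1 kb for all 76044. The ARE core was found in 58.0% of the regions against 45.2% of all regions, at 54.8 against 41.1 matches per 100 kb. AP-1 letters were found in 46.2% against 33.2%, but at 21.7 against 22.7 matches per 100 kb. The NF-κB motif was searched as GGGRNWYYCC, with R for A or G, W for A or T and Y for C or T. It was found in 41.2% against 22.5%, at 27.05 against 16.7 matches per 100 kb. RefSeq promoters of 300 bases (hg38) were matched by symbol for 8 members, with 14 entries, and HMOX1 and MAFK had none in the table. Of these members, 3 (GCLM, KEAP1 and MAFF) held an ARE core match, against 16.1% of 27305 genes, BACH1 held AP-1 against 6.05%, MAFF held NF-κB against 7.09%, and none held TGACTCAGC against 0.69%. A gene with more entries has more chances to match, and per entry the ARE core was in 3 of 14, against 13.35% of 35116. A letter match is a description of these windows and does not show that a factor binds there.

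The SKBR3 lists held 43684 to 51687 peaks and covered 92.1 to 105.7 Mb, and the MDA-MB-453 lists held 36148 to 37813 peaks and covered 70.5 to 72.1 Mb. SKBR3 TWEAK replicate 2 had the longest list. The lists hold no read counts, which leaves the sequencing depth unknown. ERBB2 and GRB7, which mark HER2 amplified cells, had promoter peaks at a percentile of 99.86 or higher in every list. Promoter peaks of KRT8, KRT18, EPCAM, GATA3 and FOXA1, of luminal epithelium, were in every list, and PTPRC (leukocytes) and PECAM1 (endothelium) had none. Promoter peaks at COL1A1, CDH5 and, in 7 lists, VIM, genes used as markers of fibroblasts, endothelium and mesenchymal cells, were present in both lines, and their part in the results was not tested.

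Every member carried a promoter peak, the highest scoring peak within 1 kb of one of its transcription start sites, in all 8 lists. Of all protein-coding genes, 9910 did so. Levels are given as the percentile of that peak by the authors' score among all peaks of its own list. A longer list holds more weak peaks and so gives a higher percentile to a peak of the same standing. MAFK ranked highest in SKBR3, at 99.3 to 99.5, followed by NFE2L2 at 96.0 to 99.1 and MAFF at 94.7 to 97.8. In MDA-MB-453 MAFK stood at 95.9 to 98.6, MAFF at 95.5 to 96.7 and NFE2L2 at 93.9 to 95.6, with NFE2L1 at 90.8 to 95.9 and KEAP1 at 91.8 to 95.0. There the range of MAFF overlapped those of MAFK and NFE2L2, while those of MAFK and NFE2L2 did not overlap. HMOX1 was lowest in both lines, with 35.7 to 59.3 in SKBR3 and 50.8 to 56.0 in MDA-MB-453. The factors and the inhibitor KEAP1 thus lay at 76.1 or higher, with BACH1 in MDA-MB-453 (54.4 to 71.3) as the exception. The target genes spread from HMOX1 near the middle to NQO1 at 88.3 to 94.8. Factors and targets overlapped, and in MDA-MB-453 NQO1 (88.3 to 90.0) stood above MAFG (80.5 to 83.9). At its canonical start alone, BACH1 in SKBR3 was at 66.0 to 82.0, against 76.4 to 84.7 for GCLM. The percentile of promoters in general was not set beside these values.

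**Figure D1:**
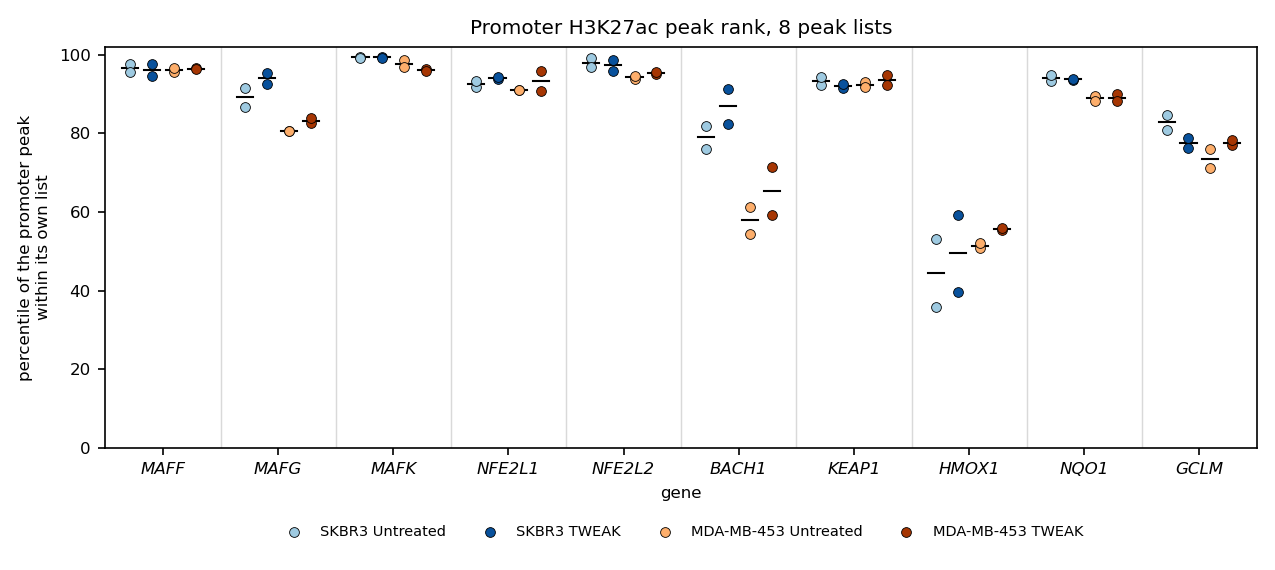
Percentile of the promoter H3K27ac peak within its own list (y axis, 0 to 100) for each member (x axis), with 1 point per list and a bar at the mean of the 2 lists of a group. MAFG, BACH1 and NQO1 lie higher in the SKBR3 lists than in the MDA-MB-453 lists, and HMOX1 is the lowest member, with the widest spread between SKBR3 lists.

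The lines were compared first, averaged over treatment, in a limma fit across all genes. Promoter percentile was higher in SKBR3 at 5 of the 10 members (MAFG, MAFK, NFE2L2, BACH1 and NQO1), against 33.3% of the 9910 genes tested, and lower at none of them, against 30.6%. Promoter peaks were wider in SKBR3 at BACH1 and MAFK, against 18.1% of genes, and narrower at NQO1, against 34.1%. The BACH1 value compares peaks at different starts, and at the canonical start its peaks were 0.80-fold as wide in SKBR3 (adjusted p = 0.203). The length covered by peaks in the window was greater in SKBR3 at 7 members (MAFG, HMOX1, MAFK, MAFF, KEAP1, NFE2L2 and NQO1), against 46.7% of 18236 genes, and smaller at none, against 26.6%. The median over the members was 0.76 on the log2 scale for covered length, against 0.22 over all genes, and the SKBR3 lists also covered more of the whole genome. For promoter percentile it was 2.65 points against 0.07 points. In bulk chromatin, a mark present in more of the cells and a stronger mark per cell cannot be told apart.

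Ranked among the 9910 shared promoters alone, which removes the length of the list, the same 5 members passed the test, with differences of 6.87 to 34.0 points. By that rank 3219 of all genes were called higher and 3304 lower. The direction of the percentile differences depended on the scale. With log2 fold enrichment over background in place of the percentile, the median of all genes lay at −0.40 in SKBR3 relative to MDA-MB-453, and MAFG (−0.13), MAFK (−0.042), NFE2L2 (−0.016) and NQO1 (−0.085) had the opposite sign. None of these 4 passed the test on that scale, on which 1056 genes were called higher and 5449 lower, against 3297 and 3036 by percentile. Relative to the median of all genes, they stood at 0.26, 0.36, 0.38 and 0.31. BACH1 passed the test on both scales with the higher value in SKBR3 (0.38 on the log2 scale). These BACH1 values, and its rank among shared promoters, compare peaks at different starts. Its SKBR3 TWEAK peaks (fold enrichment 8.29 and 11.29) lay at a start at −102.5 kb, and its peaks in the other lists at the canonical start. Fold enrichment at the canonical start alone was not tested. GCLM (−0.37), KEAP1 (−0.52) and HMOX1 (−0.37) passed it as lower on the fold enrichment scale alone, and lay at 0.025, −0.12 and 0.03 relative to the median.

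MAFG (ENSG00000197063.11, chr17:81918270-81927735, minus strand) lies in a gene-dense stretch, and 10 other protein-coding genes start within its window. Its promoter percentile was 86.8 and 91.6 in SKBR3 Untreated and 95.4 and 92.6 in SKBR3 TWEAK, and 80.5, 80.5, 82.7 and 83.9 in the MDA-MB-453 lists in the same order. The lists of the lines did not overlap. The difference was 9.70 points (SE 1.51, limma adjusted p = 0.000789). Peaks covered 39.2 to 56.7 kb of the window in SKBR3 and 17.2 to 20.1 kb in MDA-MB-453, a 2.45-fold difference (adjusted p = 1.51e-05). It was the largest fold among the members.

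Much of that length lay at neighbours. A region over the starts of ALYREF, ANAPC11 and NPB (chr17:81883063-81902074) was covered over 15687 to 17797 bp in SKBR3 and 2352 to 2748 bp in MDA-MB-453. A region at the PCYT2 promoter, 16.5 kb from the MAFG start (chr17:81908272-81914199), had percentiles of 70.7 to 76.5 in SKBR3 and 29.0 to 38.8 in MDA-MB-453. The difference of 40.7 points passed a limma fit over the 17704 regions held by all 8 lists (adjusted p = 2.12e-05), which was added after the data were seen. A region 48.6 kb downstream (chr17:81876456-81881860), outside protein-coding genes, was held by all 4 lists of SKBR3 at 62.3 to 82.8 and by none of MDA-MB-453. Of the 14 regions of the window, 8 were at start sites of other genes.

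**Figure D2:**
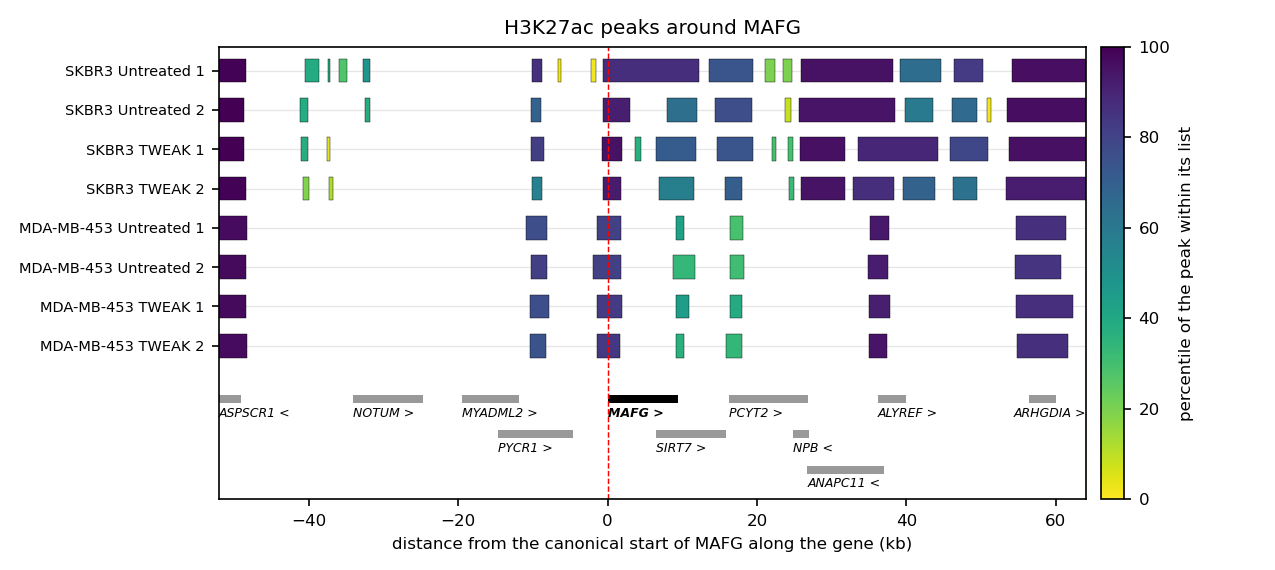
H3K27ac peaks around MAFG in each list (rows), by distance from the MAFG start along the direction of the gene (x axis, kb); the colour gives the percentile of the peak within its list and grey bars are other genes. The SKBR3 lists carry 13 to 16 peaks over a large part of the downstream side, while each MDA-MB-453 list carries 7.

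MAFK (ENSG00000198517.10, chr7:1530702-1543043, plus strand) carried the broadest promoter peak of the members in every list except MDA-MB-453 Untreated replicate 1. They spanned 22573 and 20134 bp in SKBR3 Untreated, 21603 and 13179 bp in SKBR3 TWEAK, 4528 and 9257 bp in MDA-MB-453 Untreated, and 8711 and 8865 bp in MDA-MB-453 TWEAK. The SKBR3 peaks were 2.51-fold wider (log2 difference 1.33, SE 0.26, adjusted p = 0.00787), with no overlap between lines. Its promoter percentile was 2.46 points higher (SE 0.43, adjusted p = 0.00139), and its window was covered over 48.0 to 56.5 kb against 23.8 to 25.9 kb (2.09-fold, adjusted p = 6.87e-06). The region at the promoter of INTS1, 17.7 kb upstream, differed likewise, at 98.2 to 99.4 against 84.2 to 85.3.

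MAFF (ENSG00000185022.12, chr22:38200767-38216507, plus strand) had promoter percentiles of 94.7 to 97.8 in SKBR3 and 95.5 to 96.7 in MDA-MB-453, a difference of 0.14 points (SE 0.80, adjusted p = 0.892). Its window was covered over 41.7 to 61.9 kb in SKBR3 and 24.5 to 26.7 kb in MDA-MB-453 (1.94-fold, adjusted p = 0.000265). A region that reaches an alternative MAFF start and is centred 26.0 kb downstream of the canonical one (chr22:38211879-38244015) was covered over 23286 to 31015 bp in SKBR3 and 4661 to 5885 bp in MDA-MB-453, while its percentile ranges of 92.0 to 96.3 and 93.3 to 96.6 overlapped. All 3 small MAF windows were thus covered over a greater length in SKBR3. A region that went the other way was picked out after its values were seen. At a PLA2G6 promoter 33.7 kb upstream of MAFF (chr22:38166276-38170404) percentiles were 97.6 to 98.7 in MDA-MB-453, and in SKBR3 they were 16.6, 4.26 and 16.4 in 3 lists, with no peak in TWEAK replicate 2.

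NFE2L2 (ENSG00000116044.17, chr2:177218667-177392756, minus strand) stood at 99.1, 96.9, 98.7 and 96.0 in the SKBR3 lists and at 93.9, 94.7, 95.1 and 95.6 in the MDA-MB-453 lists. The ranges did not overlap, and the difference was 2.85 points (SE 0.75, adjusted p = 0.0107). A region 20.6 kb into the gene (chr2:177239282-177248901), which overlaps an exon, was at 72.6 to 85.4 in SKBR3 against 54.1 to 61.7 (difference 20.8 points, adjusted p = 0.000794), with peaks of 7584 to 9620 bp against 1931 to 2157 bp. Of the regions held by all MDA-MB-453 lists and no SKBR3 list, 1 of the 3 highest lay 57.8 kb downstream of its start (chr2:177206377-177207543), at 36.4 to 56.5. NFE2L1 (ENSG00000082641.16, chr17:48048329-48061545, plus strand) stood at 91.9 to 94.2 in SKBR3 and 90.8 to 95.9 in MDA-MB-453 (difference 1.09 points, adjusted p = 0.418). In its window the promoters of CBX1 and SNX11 ranked lower in SKBR3, by −26.3 and −15.1 points.

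BACH1 (ENSG00000156273.16, chr21:29194071-29630751, plus strand) held 24 regions, 17 of them in introns, and no other gene starts in its window. Its peaks were distributed differently in the lines. At the canonical start (chr21:29298549-29300441) percentiles were 82.0, 76.1, 79.7 and 66.0 in SKBR3 and 61.3, 54.4, 71.3 and 59.3 in MDA-MB-453, a difference of 14.4 points (SE 4.17, adjusted p = 0.0161) in the fit over genes. Those ranges overlap, by SKBR3 TWEAK replicate 2 and MDA-MB-453 TWEAK replicate 1. An alternative start at −102.5 kb (chr21:29192561-29200371) had peaks in all 4 lists of SKBR3, at 72.5, 71.8, 82.5 and 91.2, and in none of MDA-MB-453. In the SKBR3 TWEAK lists it was the highest scoring promoter peak of the gene, so that the difference over all starts was 21.4 points (SE 3.67, adjusted p = 0.0013).

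An intron region 83.3 kb downstream of the canonical start (chr21:29375519-29388925) went the other way, at 99.1, 99.0, 99.4 and 99.4 in MDA-MB-453 against 80.3, 84.6, 74.9 and 84.8 in SKBR3 (difference −18.1 points, SE 2.04, adjusted p = 0.000104). Peaks there were 12041 to 12600 bp wide in MDA-MB-453. Of the 7 regions held by every MDA-MB-453 list and no SKBR3 list, 5 lay in the BACH1 window, and the highest ranked were 210.5 kb (chr21:29508147-29510696, 53.1 to 60.5) and 96.9 kb (chr21:29394425-29397308, 43.0 to 50.5) downstream. Covered length, at 21.6 to 34.4 kb and 25.6 to 26.7 kb, gave a 1.01-fold difference (adjusted p = 0.922).

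**Figure D3:**
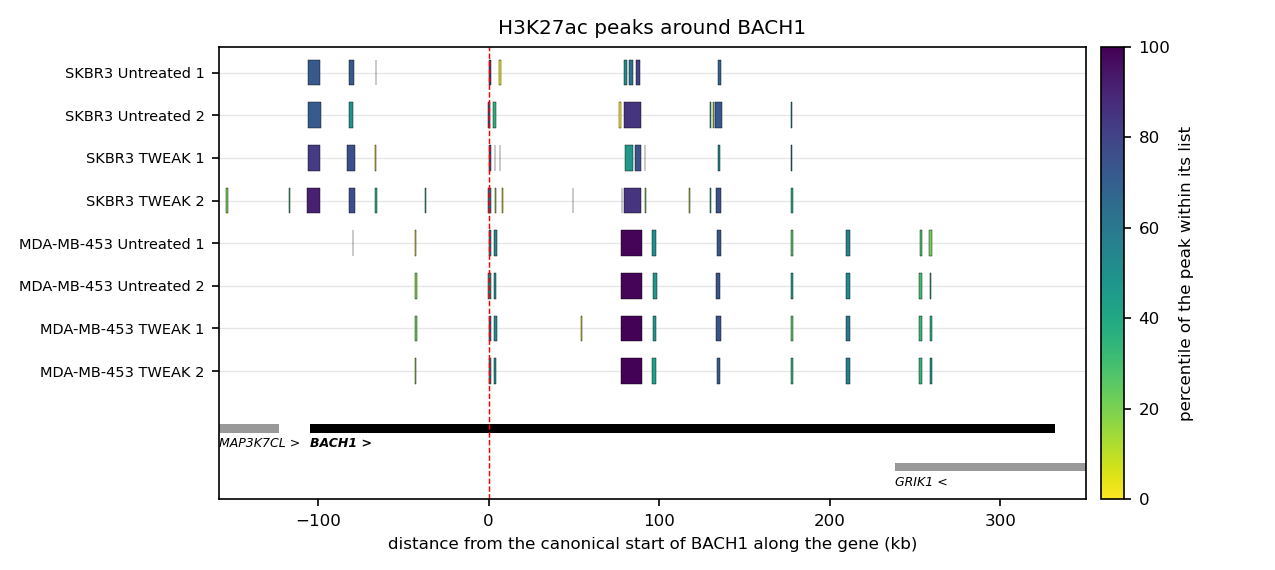
H3K27ac peaks around BACH1 in each list (rows), by distance from the canonical BACH1 start (x axis, kb); the colour gives the percentile of the peak within its list. Peaks at the alternative start on the left are in the 4 SKBR3 lists alone, while the intron region near 83.3 kb is widest and darkest in MDA-MB-453 and peaks from 210.5 kb on are in the MDA-MB-453 lists alone.

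Line-specific regions overall were no more frequent around the members than elsewhere. Of 119 regions, 9 were SKBR3-specific (held by each of its lists and by none of the other line), against 14.1% of all regions, and 7 were MDA-MB-453-specific by the same rule, against 10.5%. All 8 lists held 39 of the 119 regions (32.8%, against 23.3% of all regions). In the fit over such regions 20 of the 39 ranked higher in SKBR3, against 38.4% of regions tested, and 5 ranked lower, against 28.5%. Ranked among these regions alone, 16 of the 39 were called higher and 5 lower, against 5744 and 6232 of the 17704 regions tested. The calls at the HMOX1 distal region and the canonical BACH1 start (adjusted p = 0.0664) were among those lost.

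KEAP1 (ENSG00000079999.14, chr19:10486125-10503558, minus strand) had a promoter percentile of 91.7 to 94.3 in SKBR3 and 91.8 to 95.0 in MDA-MB-453 (difference −0.39 points, SE 0.88, adjusted p = 0.717). Its window was covered over 6.45 to 11.3 kb in SKBR3 and 3.41 to 4.06 kb in MDA-MB-453 (1.93-fold, adjusted p = 0.000311). The MDA-MB-453 lists held 2 peaks each in that window and the SKBR3 lists 3 to 8.

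HMOX1 (ENSG00000100292.18, chr22:35380361-35394214, plus strand) had promoter percentiles of 35.7 and 53.1 in SKBR3 Untreated, 39.7 and 59.3 in SKBR3 TWEAK, 50.8 and 52.0 in MDA-MB-453 Untreated and 55.5 and 56.0 in MDA-MB-453 TWEAK. The lines overlapped (difference −6.62 points, SE 5.68, adjusted p = 0.333). Its flanks differed more. The distal region with the 3 TGACTCAGC matches (chr22:35371277-35372696) was at 64.2, 68.9, 67.3 and 79.5 in SKBR3 and at 54.8, 55.5, 63.6 and 60.6 in MDA-MB-453, without overlap (difference 11.3 points, SE 3.55, adjusted p = 0.0209), a call lost when regions were ranked among those of all 8 lists alone (9.43 points, adjusted p = 0.0949). It outranked the HMOX1 promoter peak in all 8 lists.

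A region 49.7 kb downstream of the HMOX1 start (chr22:35428711-35432790) was at 80.4, 67.8, 82.8 and 92.0 in SKBR3 against 42.0, 50.8, 61.8 and 62.2 in MDA-MB-453 (difference 26.5 points, adjusted p = 0.00052). A region 61.0 kb downstream (chr22:35441151-35443090) was in the SKBR3 lists alone, at 36.9 to 75.6. The MCM5 promoter, 19.0 kb downstream, ran the other way, at 85.6 to 89.5 in MDA-MB-453 and at 14.1 to 49.7 in the 3 SKBR3 lists that held it. The HMOX1 window was covered over 11.4 to 21.7 kb in SKBR3 and 6.14 to 7.72 kb in MDA-MB-453 (2.22-fold, adjusted p = 1.3e-05), a call lost with flanks of 25 kb (log2 difference 0.19) and with peaks of q under 1e-05 (0.45).

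NQO1 (ENSG00000181019.13, chr16:69706996-69726668, minus strand) was at 93.3, 94.8, 93.6 and 94.0 in SKBR3 and 89.6, 88.3, 90.0 and 88.3 in MDA-MB-453 (difference 4.89 points, SE 0.85, adjusted p = 0.00137). Its promoter peak was nevertheless narrower in SKBR3, at 5110 to 5430 bp against 7115 to 7912 bp (0.71-fold, adjusted p = 0.00231). A region 14.3 kb into the gene (chr16:69709377-69715219) had percentiles of 49.5 to 66.9 in SKBR3 against 0.98 to 23.9 (difference 44.7 points, adjusted p = 0.00031). Its covered length was 1.19-fold greater (adjusted p = 0.0466), a call that 9 of 14 alternatives lost. GCLM (ENSG00000023909.10, chr1:93885199-93909456, minus strand) had percentiles of 81.0, 84.7, 76.4 and 78.8 in SKBR3 and 76.0, 71.2, 77.0 and 78.3 in MDA-MB-453 (difference 4.58 points, SE 2.12, adjusted p = 0.0903), and the lists of the lines overlapped.

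**Figure D4:**
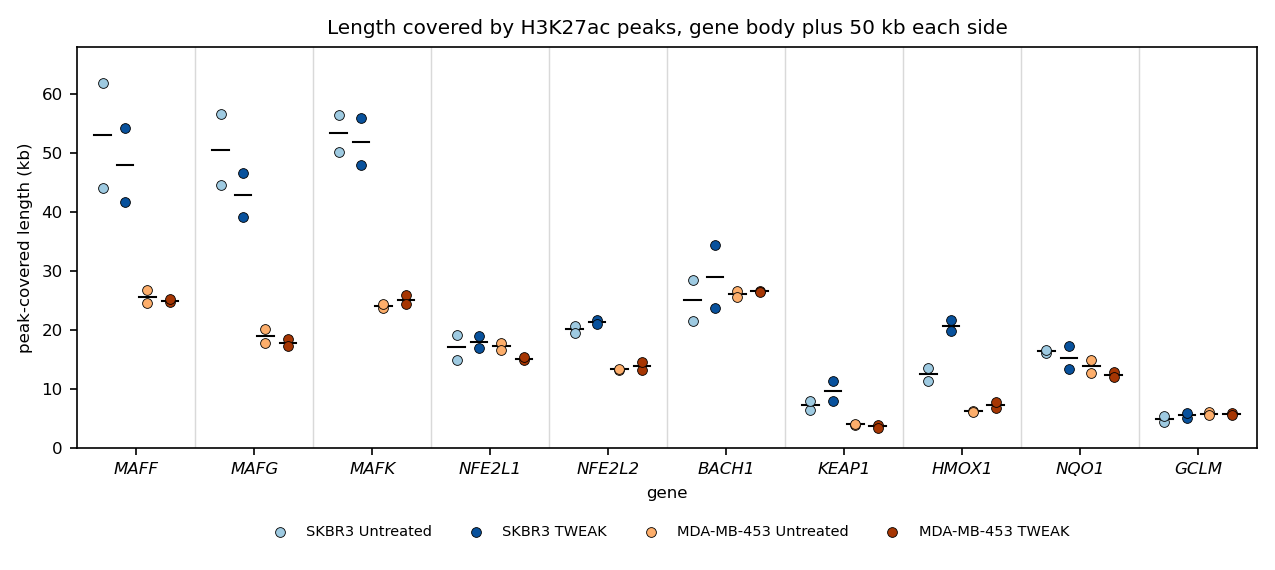
Length covered by H3K27ac peaks in the gene body plus 50 kb on each side (y axis, kb) for each member (x axis), with 1 point per list and a bar at the mean of the 2 lists of a group. MAFF, MAFG and MAFK are covered over 39.2 to 61.9 kb in SKBR3 and 17.2 to 26.7 kb in MDA-MB-453, and the HMOX1 lists of SKBR3 TWEAK lie above those of SKBR3 Untreated.

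TWEAK was compared next within each line. At the promoters, limma called 0 of the 10 members in SKBR3, where 0.0505% of genes were called higher and 0.0303% lower, and 0 members in MDA-MB-453, where 0.0101% of genes were called. At an unadjusted p under 0.05 the counts were 0 members in SKBR3, against 1198 of 9910 genes, and 1 (MAFK, −1.68 points) in MDA-MB-453, against 214 genes. The test of the difference between the lines in response also called 0 members, against 0.0101% of genes, and 0 at an unadjusted p under 0.05, against 693 genes. With 2 lists against 2, an exact permutation test cannot give less than 0.333.

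MAFG, whose protein the study ties to TWEAK in triple-negative lines, had promoter percentiles of 86.8 and 91.6 in SKBR3 without TWEAK and 95.4 and 92.6 with it. Both TWEAK lists lay above both Untreated lists, and the difference of 4.82 points (SE 2.14) had a limma adjusted p of 0.425. In MDA-MB-453 the values were 80.5 and 80.5 without TWEAK and 82.7 and 83.9 with it, again without overlap (difference 2.74 points, SE 2.14, adjusted p = 1). The responses of the lines differed by 2.08 points (SE 3.02, adjusted p = 0.871). The MAFG promoter peak in SKBR3 was 12915 and 3689 bp wide without TWEAK and 2684 and 2394 bp with it (adjusted p = 0.457). The covered length was 56.7 and 44.5 kb without TWEAK and 46.6 and 39.2 kb with it (adjusted p = 0.509), and these lists overlapped. The genes whose promoter percentile over the 8 lists was most like that of MAFG, among 9909 genes, were FAAP20 (Pearson r = 0.983), CHMP7 (0.981) and LPIN1 (0.981), a description over lists that these genes share.

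In the covered length of the windows, HMOX1 was the member called for TWEAK in SKBR3. Peaks covered 13.5 and 11.4 kb without TWEAK and 19.8 and 21.7 kb with it, in 9 and 8 against 13 and 14 peaks. Both TWEAK lists exceeded both Untreated lists, and the length was 1.62-fold greater (log2 difference 0.69, SE 0.12, adjusted p = 0.0427), against 1.55% of genes called higher and 0.175% called lower. Only 2 of 14 alternatives kept this call, the pseudocount of 100 bp (adjusted p = 0.0461) and the fit without SKBR3 TWEAK replicate 1 (0.0404), and over all 14 the adjusted p reached 0.547. The number of peaks and covered length of the whole list were also highest in SKBR3 TWEAK replicate 2, and with lists of equal size the HMOX1 difference was 0.49 on the log2 scale (adjusted p = 0.12). In MDA-MB-453 the HMOX1 window was covered over 6.23 and 6.14 kb without TWEAK and 6.79 and 7.72 kb with it (adjusted p = 1). There limma called 0 members and 0% of genes, with 0 members and 376 genes at an unadjusted p under 0.05.

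**Figure D5:**
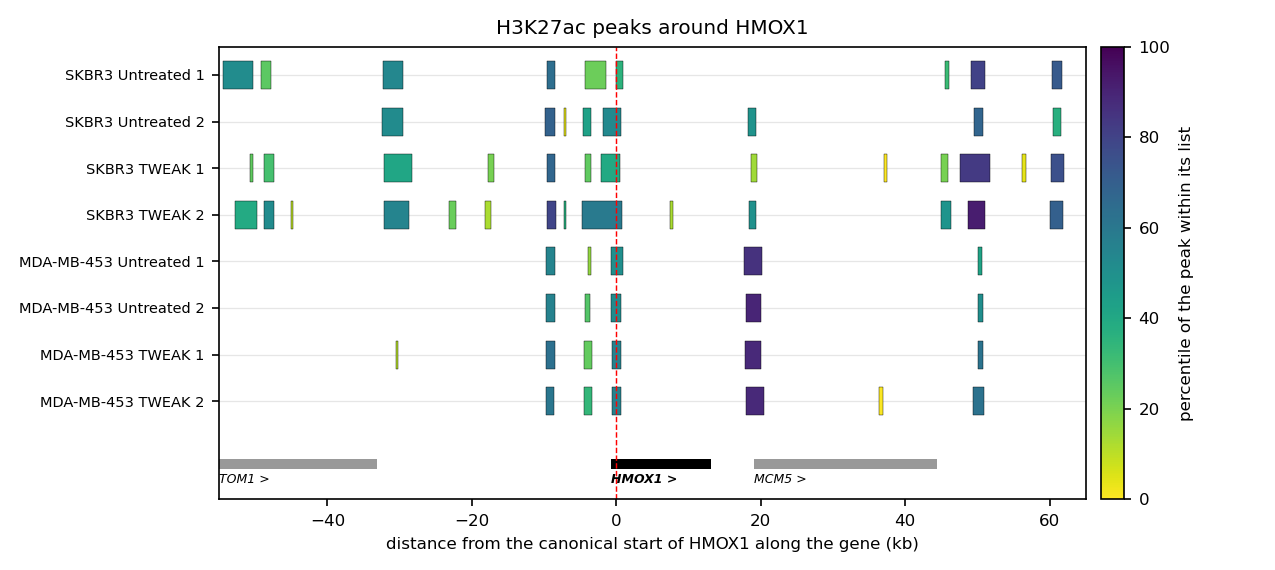
H3K27ac peaks around HMOX1 in each list (rows), by distance from the canonical HMOX1 start (x axis, kb); the colour gives the percentile of the peak within its list. The SKBR3 TWEAK lists hold 13 and 14 peaks against 9 and 8 in SKBR3 Untreated, among them low-ranked peaks near −17.6 kb, and the MDA-MB-453 lists hold 5 or 6.

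The HMOX1 promoter peak itself was 863 and 2467 bp wide in SKBR3 Untreated and 2705 and 5513 bp in SKBR3 TWEAK (2.65-fold, adjusted p = 0.489). In MDA-MB-453 it was 1739 and 1341 bp without TWEAK and 1270 and 1146 bp with it. For promoter width, limma called 1 member with TWEAK in SKBR3, BACH1 (7.35-fold, adjusted p = 0.0085), against 0.484% of genes called wider and 0.626% called narrower. That value compares peaks at different starts, since the highest scoring peak was at the canonical start in the Untreated lists (1260 and 809 bp) and at the alternative start in the TWEAK lists (7265 and 7578 bp). At the canonical start alone the difference was 1.36-fold (adjusted p = 0.654). In MDA-MB-453 0 members were called for width, against 0.0202% of genes, and 0 had an unadjusted p under 0.05.

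Among the 39 regions held by all lists, TWEAK raised 1 in SKBR3, against 0.282% of regions tested, and lowered 0, against 0.0508%. This region has its midpoint outside protein-coding genes, 20 kb downstream of the NFE2L1 start (chr17:48066394-48070399), and its far end overlaps CBX1. Its percentile was 35.7 and 33.8 in SKBR3 Untreated and 68.5 and 74.1 in SKBR3 TWEAK, and 59.7, 66.2, 62.0 and 61.3 in the MDA-MB-453 lists. The SKBR3 difference was 36.5 points (SE 4.75, limma adjusted p = 0.0449). Of 9 alternatives 3 kept the call, with differences of 33.7 to 39.3 points and adjusted p of 0.018 to 0.184, and it was lost without SKBR3 Untreated replicate 2, without SKBR3 TWEAK replicate 2 and when any 1 of the 4 MDA-MB-453 lists was left out. The response differed from that in MDA-MB-453 by 37.8 points (SE 6.71, adjusted p = 0.415), and the limma test of that difference called 0 of the 39 regions, with 1 at an unadjusted p under 0.05. At an unadjusted p under 0.05, 4 of the 39 regions passed in SKBR3 (this one, the MAFG promoter, HMOX1 at 49.7 kb and MAFK at 39.2 kb), against 2368 of 17704 regions. In MDA-MB-453, 0 of the 39 regions were called, with 2 at an unadjusted p under 0.05 (HMOX1 at 49.7 kb, 15.6 points, and the MAFK promoter), against 477 regions.

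Regions gained with TWEAK, present in both TWEAK lists and neither Untreated list of a line, were counted over regions merged from the lists of that line. They numbered 4 of 112 in SKBR3, against 4.61% of 62104 regions, and 0 of 67 in MDA-MB-453, against 1.33% of 42831. Lost regions numbered 1 in SKBR3, against 1.4%, and 1 in MDA-MB-453, against 1.3%. These shares are close to the background. All 4 gained regions ranked low in the TWEAK lists. One lay 16.4 kb downstream of the NFE2L1 start (chr17:48063941-48065508, at 20.7 and 7.91), next to the region that rose. The others lay at an ATG4D promoter at −47.5 kb from the KEAP1 start (chr19:10549976-10551636, at 16.4 and 30.8), in a BACH1 intron 91.7 kb downstream (chr21:29390438-29390876, at 35.2 and 19.0), and 17.6 kb upstream of HMOX1 (chr22:35362940-35364124, at 20.7 and 12.6). The ATG4D region held 4 NF-κB motif matches, where 20.1% of regions of like length held any, the other 3 gained regions held none, and the NOTUM region lost in SKBR3 held 1. The region lost in SKBR3 was at a NOTUM promoter 32.3 kb upstream of MAFG (chr17:81959524-81960521, at 47.9 and 38.7), and that lost in MDA-MB-453 at an internal NFE2L1 start (chr17:48055307-48057345, at 18.4 and 42.5). Leaving out 1 list loosens the rule, and gave 8 (without either SKBR3 Untreated list) to 18 gained regions (without SKBR3 TWEAK replicate 1) and 3 to 10 lost regions in SKBR3.

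A list of 35 other genes of the pathway was set beside the members, with other MAF, CNC and BACH factors, KEAP1 ligase partners and NRF2 targets. Of these, 22 had a promoter peak in all 8 lists, and 5 ranked higher and 3 lower in SKBR3, against 33.3% and 30.6% of all genes. SRXN1 (sulfiredoxin, 29.6 points, adjusted p = 3.72e-05) and PRDX1 (peroxiredoxin, 13.8 points, adjusted p = 0.00025) had the largest positive differences among those called. BLVRB (biliverdin reductase, −7.49 points) and TXNRD1 (thioredoxin reductase, −4.99 points) had the largest negative ones among those called. Promoter peaks were wider in SKBR3 at 5 and narrower at 8 of the 22, against 18.1% and 34.1% of all genes, with TXNRD1 (5.04-fold) and the transketolase gene TKT (4.12-fold) widest relative to MDA-MB-453, and PGD (0.42-fold) and RBX1 (0.48-fold) narrowest. Covered length was greater at 24 of 35 and smaller at 6, against 46.7% and 26.6% of all genes, with TXNRD1 (4.01-fold) and GPX2 (3.69-fold) among the greater and AKR1C3 (0.38-fold) among the smaller.

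With TWEAK, the other pathway genes showed no called change of promoter percentile in either line, and none in MDA-MB-453 for any measure. In SKBR3 the promoter peak of SQSTM1, which encodes the KEAP1-binding autophagy adaptor p62, was 5540 and 5312 bp wide without TWEAK and 11333 and 12551 bp with it (2.20-fold, SE 0.11 on the log2 scale, adjusted p = 0.0105). Of the 22 genes, 1 was called wider and 0 narrower, against 0.484% and 0.626% of all genes. The SQSTM1 percentile differed by −0.36 points (limma adjusted p = 0.907), and the alternatives were run for the members only. In MDA-MB-453 the SQSTM1 peak was 4607 and 4949 bp wide without TWEAK and 5694 and 5380 bp with it, which did not pass the test. In both lines the TWEAK lists lay above the Untreated lists. Covered length rose with TWEAK in SKBR3 at 3 of the 35, against 1.55% of all genes, with the largest fold at the neighbouring aldo-keto reductase genes AKR1C1 and AKR1C2 (2.39-fold, adjusted p = 0.0215), whose windows overlap and hold the same peaks, so that their values are 1 and the same, and the third at MAF, a large MAF factor gene (0.98 on the log2 scale, adjusted p = 0.028).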

How the data were processed

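H3K27ac chromatin of each library was immunoprecipitated and sequenced. According to the labels and the study's methods, the authors trimmed reads with Trimmomatic, mapped them to hg38 with Bowtie2 and ran MACS2 on every library against its input, after which blacklisted regions were taken out. Tool versions and the q cutoff are not given in the sources used here. The deposited lists give for each peak a score, the fold enrichment (a ratio over local background), and −log10 of the p-value and of the q-value, of which the score is the integer part of 10 times the last. They hold no read counts, so depth is unknown and no counting error is given. The 2 input libraries had no list and were not analysed here.

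Peaks were matched to GENCODE release 44 starts of protein-coding transcripts within 1 kb. The percentile is the average rank of the peak by score divided by the number of peaks in its list, times 100. Percentile, log2 width and log2 (covered bp + 1000) were fitted across all genes with limma 3.58.1 (R 4.3.3, trend, 4 groups of 2 lists, 4 residual degrees of freedom), Benjamini-Hochberg adjusted over all genes, and called at an adjusted p under 0.05. The scripts (Python 3.11.15) were tested on simulated data. Merged regions shared at least 1 bp. A motif share for regions of like length used regions within 20% of the length.

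The members and lists were chosen with earlier results of these data known. Named in the text by rule were the 10 members, every gained or lost region, for each line the 3 line-specific regions of highest mean percentile, the called other pathway genes with the 2 largest differences per direction, and the 3 genes most like MAFG. Other regions were named after their values were seen, and 1 value among the other pathway genes is not reported here. Alternatives were flanks of 25 and 100 kb, starts within 2.5 kb, peaks of q under 1e-05, lists of 36000 peaks, a pseudocount of 100 bp, fold enrichment in place of percentile, summed width, 50% overlap, a replicate block and leaving out each list. The canonical start alone, the fit over regions, its ranks among shared regions and the alternatives for the NFE2L1 region were added after the data were seen. The study's test of read counts in peaks needs reads and was not used here.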

Additional observations from a re-analysis of the deposited data

Results flagged for a closer look

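Of 10 promoter percentiles, 10 promoter widths, 10 covered lengths and 28 region percentiles examined, 4 were such that every TWEAK list lay on the opposite side of every Untreated list in the 2 lines, in opposite directions. The limma test of that difference between the lines passed at none of them.

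The promoter percentile of GCLM was 80.97 and 84.66 in SKBR3 Untreated and 76.42 and 78.76 in SKBR3 TWEAK, and it was 76.04 and 71.15 in MDA-MB-453 Untreated and 76.97 and 78.32 in MDA-MB-453 TWEAK. The responses differed by −9.27 points (SE 4.24, limma adjusted p = 0.69).

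The width of the HMOX1 promoter peak was 863 and 2467 bp in SKBR3 Untreated and 2705 and 5513 bp in SKBR3 TWEAK, and it was 1739 and 1341 bp in MDA-MB-453 Untreated and 1270 and 1146 bp in MDA-MB-453 TWEAK. The responses differed by 1.74 on the log2 scale (SE 0.78, limma adjusted p = 0.771).

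The region 16.5 kb downstream of the MAFG start, at the PCYT2 promoter, had percentiles of 73.74 and 76.54 in SKBR3 Untreated and 73.71 and 70.7 in SKBR3 TWEAK, and of 29.04 and 30.47 in MDA-MB-453 Untreated and 38.81 and 33.69 in MDA-MB-453 TWEAK. The responses differed by −9.43 points (limma adjusted p = 0.749).

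The region 41.0 kb upstream of the KEAP1 start, at an ATG4D promoter, had percentiles of 85.17 and 81.58 in SKBR3 Untreated and 79.36 and 62.94 in SKBR3 TWEAK, and of 59.95 and 60.91 in MDA-MB-453 Untreated and 69.03 and 62.36 in MDA-MB-453 TWEAK. The responses differed by −17.5 points (SE 7.90, limma adjusted p = 0.63).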

How the results depend on the processing

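The 2 lists per group leave 4 residual degrees of freedom, and ranks, widths and covered lengths depend on the authors' peak calling. The count of members called for promoter percentile by line was 5 higher and 0 lower, against 3297 and 3036 of 9910 genes. With peaks of q under 1e-05 it was 4 higher and 0 lower among the 9 members tested, against 1742 and 3032 of 7824 genes. With fold enrichment it was 1 higher and 3 lower, against 1056 and 5449 of 9910 genes, and BACH1 alone kept its call. That BACH1 value compares peaks at different starts. The count for promoter percentile was 0 for TWEAK in each line and for the interaction under all 16 alternatives. For covered length by line the count was 7 members (6 to 7 with each list left out). It was 8 with 100 kb flanks, 6 with 25 kb flanks or equal lists, and 5 with q under 1e-05. For covered length and width with TWEAK in MDA-MB-453 the count stayed at 0. Alternatives were tallied for the called member values, the NFE2L1 region and the MAFG promoter percentile with TWEAK. Of these, 247 kept direction and call status, 32 kept direction and lost the call, and 6 reversed. The 247 include 16 alternatives in each line for MAFG with TWEAK, which was not called. Of the TWEAK calls in SKBR3, HMOX1 covered length kept 2 and lost 12, and the NFE2L1 region kept 3 and lost 6. The BACH1 width, which compares different starts, kept 10, lost 2 and reversed in 1. With fold enrichment the line differences of MAFG (−0.134), MAFK (−0.042), NFE2L2 (−0.016) and NQO1 (−0.085) reversed on the log2 scale, where the median of all genes was −0.397. The BACH1 width reversed for TWEAK in SKBR3 with summed width (−0.045) and for the line with the canonical start (−0.316).

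Promoter widths called by line rose from 3 to 5 with summed width (3 to 5 with each list left out). Widths called for TWEAK in SKBR3 fell from 1 to 0 with the canonical start, summed width and the replicate block (1 to 2 with each list left out). Covered lengths called for TWEAK in SKBR3 fell from 1 to 0 with flanks of 25 or 100 kb, lists of equal size, peaks of q under 1e-05 and the replicate block (0 to 1 with each list left out). SKBR3-specific regions numbered 9, and 16 with flanks of 100 kb, 4 with 25 kb, 15 with 50% overlap and 3 with q under 1e-05 (9 to 13 with each list left out). Regions gained in SKBR3 numbered 4, and 1 with lists of equal size or q under 1e-05 (8 to 18). Regions lost in SKBR3 numbered 1, and 4 with 100 kb, 0 with 25 kb, 3 with equal lists, 2 with 50% overlap and 0 with q under 1e-05 (3 to 10). In MDA-MB-453, gained regions numbered 0, and 1 with 50% overlap (0 to 3), and lost regions 1, and 2 with 100 kb or 50% overlap and 0 with q under 1e-05 (1 to 3). Fewer lists or peaks loosen or tighten these rules by construction, and the cause was not tested otherwise.

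Libraries of a number deviated together with a correlation of 0.304 in SKBR3 and 0.017 in MDA-MB-453 over 9910 genes, and the labels give them only a number. With the replicate block, 5 members ranked higher and 0 lower in SKBR3 by promoter percentile, against 3524 and 3349 of 9910 genes. Covered length was called greater at 7 and smaller at 0, against 8827 and 5118 of 18236 genes. Of the 39 regions, 20 were called higher and 5 lower, against 7193 and 5521 of 17704 regions. The TWEAK calls of HMOX1 covered length (adjusted p = 0.0626) and BACH1 width (0.0687) were lost in limma with the block.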
